A study of Mus musculus with 6 samples.

Results

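The genes of MHC class II antigen presentation were followed in cultured tracheal epithelium of mice with and without a missense allele of Dnaaf5, a gene for a cytoplasmic factor that assembles the dynein motors of motile cilia. They were chosen by symbol as H2-Aa, H2-Ab1, H2-Eb1, H2-DMa, H2-DMb1, Cd74 and Ciita, and all 7 were found among the 20483 genes of the deposited table. The samples were 3 *WT/WT* mice (WT1, WT2 and WT3) and 3 *MIS/MIS* mice (MT1301, MT1306 and MT1383), all C57BL/6 and 12 weeks old. *MIS/MIS* mice were homozygous for a change of a cysteine to a phenylalanine, made by CRISPR-Cas9, and *WT/WT* mice were their littermates. Tracheal epithelial cells were grown into airway-like sheets at an air-liquid interface and read by droplet single-cell RNA sequencing, which counts unique molecular identifiers (UMIs) near the 3′ end of transcripts. Such cultures are grown from epithelial cells, away from the immune cells, vessels and stroma of the trachea.

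MHC class II molecules are pairs of an α and a β chain that display peptides from engulfed or internal proteins to CD4+ T cells. H2-Aa and H2-Ab1 encode the chains of I-A, and H2-Eb1 encodes the β chain of I-E, whose α chain gene is defective in C57BL/6 mice. Cd74 encodes the invariant chain, which fills the groove of the new molecule and steers it to endosomes. H2-DMa and H2-DMb1 encode the chains of H2-M, which exchanges the remnant of the invariant chain for peptide. Ciita encodes the coactivator that switches these genes on, and it does so through proteins bound to a shared promoter module, the X and Y boxes. Dendritic cells, macrophages and B cells carry class II constantly, whereas many epithelia, the airway included, carry it at low level or after interferon-γ.

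The promoter module is shown here for members whose start window was read, since it is what these genes are known to share. Windows of 300 bases ran from 250 bases before to 50 bases from the annotated start on. They were taken from RefSeq on GRCm38.p6, the build called mm10 in the study, and those of 4 of the 7 genes were read. Each is printed 5′ to 3′ on the strand of the gene, with an X box core (CTNGNAAC) and a Y box (TGATTGG) in capitals. The windows lie at chr17:34287774-34288073 on the minus strand for H2-Aa, at chr17:34305617-34305916 on the plus strand for H2-Eb1 and at chr17:34152941-34153240 on the plus strand for H2-DMb1.
H2-Aa: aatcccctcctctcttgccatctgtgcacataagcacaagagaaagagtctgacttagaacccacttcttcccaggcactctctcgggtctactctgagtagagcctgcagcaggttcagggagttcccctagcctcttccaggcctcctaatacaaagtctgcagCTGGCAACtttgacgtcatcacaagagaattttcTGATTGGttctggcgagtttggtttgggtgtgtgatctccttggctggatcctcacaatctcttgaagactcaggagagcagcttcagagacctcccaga
H2-Eb1: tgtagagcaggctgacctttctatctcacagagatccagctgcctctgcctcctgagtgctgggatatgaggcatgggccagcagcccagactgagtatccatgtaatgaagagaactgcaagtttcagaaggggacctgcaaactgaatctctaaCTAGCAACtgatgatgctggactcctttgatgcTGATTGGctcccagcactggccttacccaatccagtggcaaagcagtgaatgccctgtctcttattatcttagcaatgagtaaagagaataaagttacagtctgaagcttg
H2-DMb1: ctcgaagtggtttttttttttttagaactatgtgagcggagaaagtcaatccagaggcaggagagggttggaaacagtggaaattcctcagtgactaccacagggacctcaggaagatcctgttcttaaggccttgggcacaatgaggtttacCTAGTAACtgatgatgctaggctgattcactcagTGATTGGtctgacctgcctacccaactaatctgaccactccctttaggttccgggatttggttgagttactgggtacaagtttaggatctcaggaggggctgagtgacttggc
In H2-Aa the X letters stood at -84 to -77 and the Y letters at -50 to -44, counted from the annotated start. The positions were -94 to -87 and -61 to -55 in H2-Eb1, and -97 to -90 and -63 to -57 in H2-DMb1, so that 26, 25 and 26 bases lay between the boxes of H2-Aa, H2-Eb1 and H2-DMb1. The letters were chosen after the sequences had been seen. With both strands searched, the X letters were in 13.2% and the Y letters in 7.82% of 32851 such windows, and an X followed by a Y on the same strand within 40 bases was in 0.0944% (31 windows). Those 31 also held the window of H2-Ob, a class II locus that modulates H2-M, with 23 bases between the letters. The window of Rfx5, a subunit of the factor that binds the X box, was among them with 6 bases between. So were windows of genes outside class II, such as Ift74 (26 bases) and Mark3 (28 bases), so the pair of letters was not confined to class II genes. The H2-DMa windows, at chr17:34122582-34122881 and chr17:34125268-34125567 on the plus strand, held neither set of letters. Both lie inside the span annotated for the gene, so the start of that span was not searched. H2-Ab1 and Ciita had no window, and the windows read for the members left out the chromosome of Cd74.

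**Figure D1:**
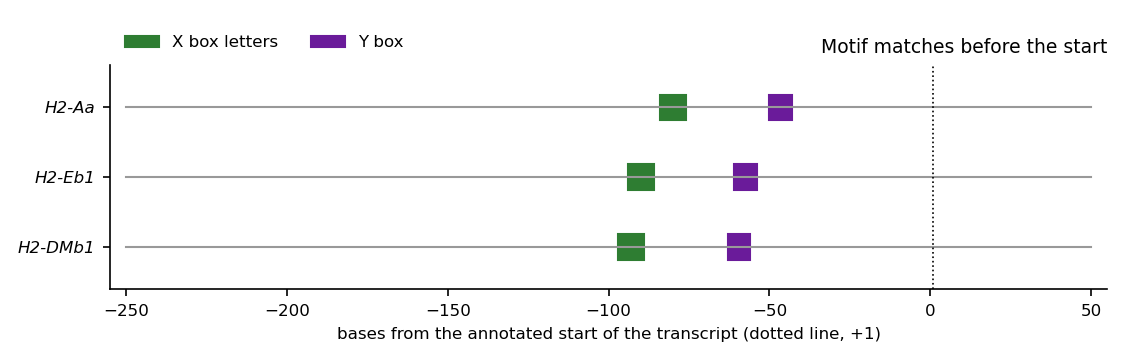
Places of the matched letters in the windows of H2-Aa, H2-Eb1 and H2-DMb1; the x axis is the distance in bases from the annotated start, green boxes are the X box letters and purple boxes the Y box letters. In the 3 windows the X letters come first, and 25 or 26 bases lie between them and the Y letters.

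The 5 H2 genes lie within the major histocompatibility complex. On GRCm38 the annotation places H2-DMa at chr17:34119541-34139101, H2-DMb1 at chr17:34153072-34160230, H2-Ab1 at chr17:34257689-34269419, H2-Aa at chr17:34282744-34287823 and H2-Eb1 at chr17:34305867-34316674, all on the plus strand except H2-Aa. Ciita lies elsewhere, at chr16:10480059-10528418 on the plus strand.

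The 6 libraries held 2673 to 6710 cells per mouse, 23871 in all, with a median of 21327.5 to 35383 UMIs per cell. The 16 cluster names were those of the authors. Foxi1 was highest in Ionocyte, Chga in Neuroendocrine, Foxj1 in Multiciliated2 and Scgb3a2 in Secretory1, and Krt5, Krt14 and Trp63 in Basal4. Basal7 had the highest Mmp7 (154 CPM), where CPM are UMIs per 1000000 UMIs of the same cells. Of the basal markers, its Krt14 ranked 3 of 16 clusters (804 CPM), its Trp63 7 (16.7 CPM) and its Krt5 8 (81.8 CPM). Dnaaf5 in all cells was at 9.87 to 13.6 CPM in the *WT/WT* mice and 15.2 to 21.2 CPM in the *MIS/MIS* mice; within multiciliated cells the means were 43.2 and 53.0 CPM (adjusted p = 0.896, limma voom). Counts at the 3′ end do not read the amino acid change, so they do not check the genotype. Among the barcodes, 67 occurred in more than 1 mouse. Nothing in the labels says whether cultures were pooled, so the spread between libraries is that between 3 labelled mice of each genotype.

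Class II transcripts were scarce and sat in few cells. Of 23871 cells, 85.1% had no UMI of H2-Aa, H2-Ab1, H2-Eb1 or Cd74. H2-Aa was found in 703 cells (2.95%) with 1831 UMIs, H2-Ab1 in 1068 cells (4.47%) with 2541 UMIs and H2-Eb1 in 615 cells (2.58%) with 1421 UMIs. Cd74 was found in 2670 cells (11.2%), with 15333 UMIs and up to 382 in a cell. The top 239 cells of each gene, 1% of all cells, held 73.4% of the UMIs of H2-Aa, 62.9% of H2-Ab1, 73.5% of H2-Eb1 and 57.9% of Cd74. The transcripts of the antigen-binding chains and of the invariant chain were therefore concentrated in a small part of the culture. H2-M was spread more evenly: the top 239 cells held 22.4% of the 2456 UMIs of H2-DMa and 18.9% of the 4013 UMIs of H2-DMb1. Ciita gave 166 UMIs in 151 cells (0.633%).

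All 7 genes had their highest mean level in Basal7, a cluster of 510 cells, where 3.56% of 13111 genes that reached 5 CPM in a cluster were highest. The comparison between clusters is a description, since the clusters had been made from the same cells and genes. Means and SDs are over the mice with at least 20 cells of a cluster. Without 3 cells of WT1 that are described below, 6 of the 7 were still highest in Basal7, and H2-DMa was highest in Multiciliated3 (5.76 against 5.41 CPM in Basal7). The next cluster for the class II chains and for Cd74 was Secretory1, with 4861 cells.

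Cd74 averaged 210 ± 186 CPM (SD, n = 5 mice) in Basal7 and 65.1 ± 31.4 CPM (n = 6) in Secretory1. It averaged 14.0 ± 8.20 CPM in Basal1 and 9.61 ± 8.58 CPM in Multiciliated2. The spread in Basal7 was wide enough to overlap Secretory1, and that of Basal1 overlapped Multiciliated2. At the low end were Multiciliated3 at 0.775 ± 0.706 CPM, Basal5 at 1.21 ± 0.434 CPM and Basal4 at 1.63 ± 2.24 CPM, which did not differ beyond their spread. Multiciliated4 had no Cd74 UMI in 146 cells, which allows a share of cells with a UMI of up to 2.05%. That limit, like the binomial intervals below, covers counting error only.

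The class II chains followed the same order at its top. H2-Aa averaged 43.0 ± 63.7 CPM in Basal7 and 6.91 ± 4.79 CPM in Secretory1, and its other means were at most 1.11 CPM (Basal1). H2-Eb1 averaged 33.5 ± 50.3 CPM in Basal7 and 4.07 ± 3.07 CPM in Secretory1. The SDs of H2-Aa and H2-Eb1 in Basal7 exceeded the means, so the step to Secretory1 lay within the spread over mice. H2-Ab1 averaged 48.5 ± 68.5 CPM in Basal7, 8.11 ± 4.95 CPM in Secretory1, 5.37 ± 1.69 CPM (n = 4) in Basal4 and 3.73 ± 2.77 CPM in Basal1. Without the 3 WT1 cells the Basal7 means were 14.4 CPM for H2-Aa, 16.7 CPM for H2-Ab1, 10.3 CPM for H2-Eb1, 137 CPM for Cd74 and 0.745 CPM for Ciita. In Basal4, the cluster highest in Krt5, H2-Eb1 averaged 1.23 ± 1.43 CPM and H2-Aa 0.0491 ± 0.0982 CPM, so H2-Ab1 was the chain that stood above its spread there.

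H2-M and Ciita had other profiles. H2-DMa, the α chain of H2-M, averaged 8.29 ± 5.04 CPM in Basal7, 5.76 ± 1.09 CPM in Multiciliated3, 5.54 ± 1.47 CPM in Multiciliated1 and 3.58 ± 0.938 CPM in Secretory1. H2-DMb1, its β chain, averaged 13.5 ± 4.21 CPM in Basal7, 8.64 ± 3.00 CPM in Secretory1 and 7.35 ± 1.65 CPM in Secretory2, and was lowest in Basal4 at 2.03 ± 2.99 CPM. For both, neighbours in the order overlapped within 1 SD. Ciita averaged 1.77 ± 2.46 CPM in Basal7, on 20 UMIs in 11 cells, and 0.449 ± 0.198 CPM in Secretory1, on 68 UMIs in 64 cells. In Multiciliated4, Neuroendocrine and Ionocyte no Ciita UMI was found, which allows up to 2.05%, 1.84% and 10.7% of their cells.

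**Figure D2:**
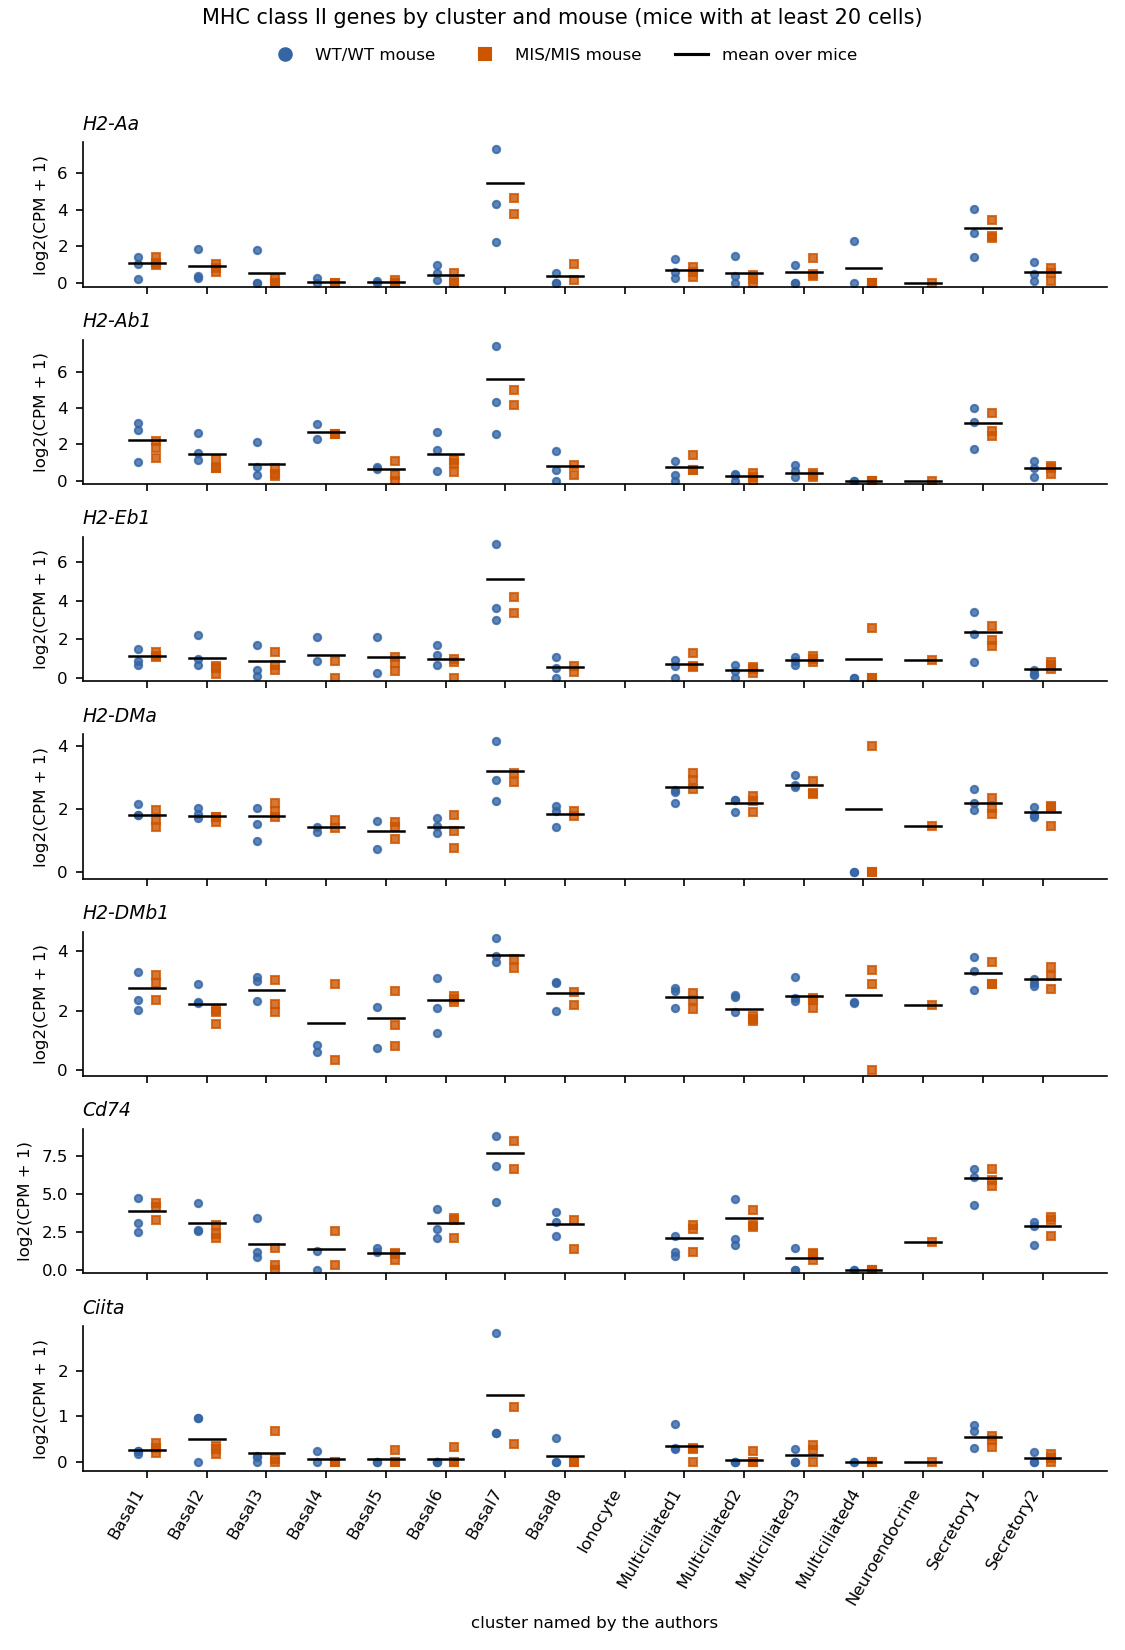
Level of each gene (log2 of CPM + 1, y axis) in each of the 16 clusters (x axis); blue circles are *WT/WT* mice, orange squares are *MIS/MIS* mice, and bars are the mean over mice with at least 20 cells, taken before the log. Cd74 means are 210 CPM in Basal7 and 65.1 CPM in Secretory1, and H2-DMa and H2-DMb1 vary less over the clusters than the other genes with more than 200 UMIs.

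The share of cells with a UMI gave the same leading clusters for Cd74. It was 38.2% in Basal7 (exact 95% binomial interval 34.0 to 42.6) and 30.6% in Secretory1 (29.3 to 31.9). In Multiciliated3, among the lowest, it was 1.07% (0.717 to 1.53). Median depths were 28183, 33387 and 26359.5 UMIs per cell in Basal7, Secretory1 and Multiciliated3. With every cell thinned at random to 5000 UMIs, the shares were 20.6% in Basal7, 11.4% in Secretory1 and 0.221% in Multiciliated3. No cell held fewer than 5000 UMIs, and none was lost by thinning.

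Counts per cell were graded. The summed UMIs of H2-Aa, H2-Ab1, H2-Eb1 and Cd74 were at least 20 in 211 cells (0.884% of all cells), which held 54.7% of the 21126 summed UMIs. Near that limit lay 74 cells with 15 to 19 UMIs and 52 with 20 to 24. Of the 211 cells, 136 were in Secretory1 (2.80% of that cluster), 41 in Basal7 (8.04%) and 16 in Basal1 (0.686%). By mouse there were 23 in WT1, 16 in WT2, 58 in WT3, 49 in MT1301, 39 in MT1306 and 26 in MT1383. Both genotypes had such cells in every mouse. Their median depth was 44277 UMIs, against 28687.5 in the other cells.

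**Figure D3:**
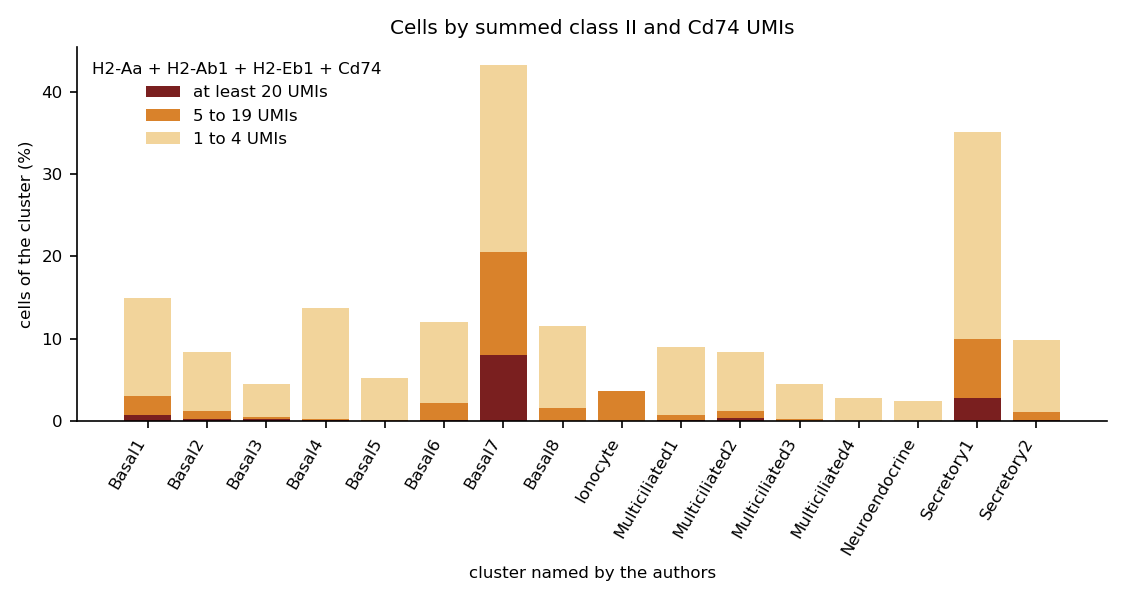
Percent of the cells of each cluster (y axis) by their summed UMIs of H2-Aa, H2-Ab1, H2-Eb1 and Cd74; stacked colours are 1 to 4, 5 to 19 and at least 20 UMIs, and cells with none are not drawn. The class of at least 20 UMIs reaches 8.04% in Basal7 and 2.80% in Secretory1.

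The 211 cells carried epithelial markers. Epcam, an epithelial adhesion molecule, and Cdh1, which encodes E-cadherin, each had a UMI in 211 of the 211. Ptprc, the common leukocyte gene, and Itgax, Flt3, Cd79a and Cd3e were at 0 in them. Laptm5 gave 2 UMIs and Spi1 1 in the 211 cells. Csf1r, a macrophage receptor gene, had a UMI in 5.69% of them (14 UMIs) and in 1.66% of the other cells, and Aif1, also a macrophage gene, in 3.79% (9 UMIs) and 0.579%. Within Secretory1 they were at 1.93 and 0.967 CPM in the cells with at least 20 summed UMIs and at 0.365 and 0.347 CPM in the others, and their part in the class II counts was not tested. Of 17 leukocyte markers 9 were in the table, and in all cells their summed level was 1.19 to 1.32 CPM in the *WT/WT* mice and 1.16 to 2.65 CPM in the *MIS/MIS* mice. Within Secretory1, Scgb3a2, a secretoglobin of airway secretory cells, was at 17468 CPM in the cells with at least 20 summed UMIs and 13354 CPM in the others.

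Secretory1 was the cluster in which class II could be compared mouse by mouse with the most cells. Cd74 there was at 68.9, 18.3 and 99.8 CPM in WT1, WT2 and WT3, and at 59.7, 98.4 and 45.5 CPM in MT1301, MT1306 and MT1383. H2-Aa was at 5.73, 1.66 and 15.1 CPM in the *WT/WT* mice and 4.38, 9.76 and 4.85 CPM in the *MIS/MIS* mice, in the same order. H2-Ab1 was at 8.45, 2.33 and 15.3 CPM and at 5.63, 12.4 and 4.58 CPM. For these genes WT3 and MT1306 were the highest mice and WT2 was the lowest, so the *WT/WT* values enclosed the *MIS/MIS* values. H2-Eb1 had the same extremes, at 3.72, 0.746 and 9.44 CPM against 2.90, 5.48 and 2.15 CPM. Ciita was at 0.591, 0.233 and 0.746 CPM in the *WT/WT* mice and 0.256, 0.476 and 0.391 CPM in the *MIS/MIS* mice. Its lowest and highest mice, WT2 and WT3, were also those of the chains. WT3 was in addition the library in which the collagen genes Col1a1, Col1a2 and Col3a1 of fibroblasts were found, at 19.6, 19.98 and 4.48 CPM over all cells, against at most 0.0326 CPM in any other mouse. In the 211 cells with at least 20 summed UMIs the same collagen genes gave 0, 1 and 0 UMIs.

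In Basal7 the level rested on few cells. Cd74 was at 452, 113 and 21.7 CPM in WT1, WT2 and WT3 and at 100 and 360 CPM in MT1301 and MT1306. MT1383 had 12 Basal7 cells and was left out of the means (20.7 CPM). H2-Aa was at 156, 18.6 and 3.80 CPM in the *WT/WT* mice and at 12.5 and 24.1 CPM in MT1301 and MT1306. WT1 was the highest mouse for both, and WT3 the lowest. H2-Ab1 was at 170, 19.5 and 4.88 CPM against 16.9 and 31.3 CPM, and H2-Eb1 at 123, 11.1 and 7.05 CPM against 9.38 and 16.9 CPM. The *WT/WT* values enclosed those of the *MIS/MIS* mice for each chain. The share of Basal7 cells with at least 20 summed UMIs was 35.1% in MT1306 (13 of 37 cells; exact 95% interval 20.2 to 52.5), 11.7% in WT1 (7 of 60), 7.11% in MT1301 (14 of 197) and 4.61% in WT2 (7 of 152). In WT3 it was 0 of 52, which allows up to 5.77%.

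In WT1, 3 cells held 92.2% of the H2-Aa, 93.9% of the H2-Ab1, 94.7% of the H2-Eb1 and 81.6% of the Cd74 UMIs of its 60 Basal7 cells. Their summed UMIs of the 3 chains and Cd74 were 710, 625 and 343, on 71413, 50021 and 29091 UMIs and 7963, 7114 and 5288 genes. They held 135, 110 and 61 UMIs of H2-Aa, 110, 159 and 70 of H2-Ab1, 83, 112 and 53 of H2-Eb1 and 382, 244 and 159 of Cd74. Ciita gave 2, 7 and 2 UMIs in them, 11 of the 20 Ciita UMIs of the cluster. Every member was therefore present in each of the 3 cells, H2-DMa with 8, 18 and 5 UMIs and H2-DMb1 with 13, 10 and 7. Epcam gave 38, 51 and 29 UMIs. Krt5, Trp63 and Mmp7, which mark the basal clusters and Basal7, and Nkx2-1, Sox2 and Ptprc were at 0 in all 3. Spink8, a protease inhibitor gene, gave 314, 370 and 276 UMIs, 6378 CPM against 0.256 CPM in the other 507 Basal7 cells, and Spp1, the gene of osteopontin, gave 608, 115 and 150. By Spink8, Spp1, Nkx2-1 and Sox2 the 3 cells stood apart from most cells of the cluster whose name they bear. The first of the 3 also lay above the upper limit of 7500 genes per cell stated for the study. Whether they were doublets was not tested. Without them H2-Aa in WT1 Basal7 was 13.2 CPM, H2-Ab1 11.1 CPM, H2-Eb1 7.08 CPM and Cd74 89.6 CPM.

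H2-Ab1 was found in Basal4, where Cd74 was rare. Of the 152 Basal4 cells with an H2-Ab1 UMI (11.1% of 1365 cells; exact 95% interval 9.52 to 12.9), 3 also had Cd74 (1.97%; 0.409 to 5.66), 1 had H2-Aa and 7 had H2-Eb1. In Basal7 87.7% of the 106 cells with H2-Ab1 had Cd74 (79.9 to 93.3), in Secretory1 75.9% of 469 (71.8 to 79.7) and in Basal1 43.9% of 114 (34.6 to 53.5). Among the cells without H2-Ab1 the share with Cd74 was 0.660% in Basal4, 25.2% in Basal7, 25.8% in Secretory1 and 8.74% in Basal1. H2-Ab1 was thus mostly seen without the invariant chain in Basal4 and mostly with it in Basal7 and Secretory1. This was not particular to Basal4. On fewer cells, Cd74 was found in 1 of 21 H2-Ab1 cells of Basal5, 3 of 19 of Multiciliated3, 6 of 20 of Multiciliated1 and 10 of 31 of Basal3. WT1 gave 1048 of the 1365 Basal4 cells. H2-Ab1 counts in Basal4 were low, with 1 UMI in 118 of the 152 cells and 6 at most. The share of cells with H2-Ab1 was 1.32% in Secretory2, at a median depth of 31434.5 UMIs, close to the 30257 of Basal4. After thinning to 5000 UMIs, 33 Basal4 cells had H2-Ab1 and 1 of them Cd74 (3.03%, and 0.225% of the cells without H2-Ab1), against 72 of 120 in Secretory1 and 24 of 30 in Basal7.

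In Basal4 the H2-Ab1 level ran from 3.93 to 7.81 CPM over the 4 mice with at least 20 such cells. H2-Ab1 was at 3.93 and 7.81 CPM in WT1 and WT3 and at 4.88 and 4.87 CPM in MT1306 and MT1383. The number of cells with both transcripts was 3 of 101 in WT1, 0 of 34 in WT3, 0 of 14 in MT1306 and 0 of 3 in MT1383. Basal4 cells made up 57.1% of the basal cells of WT1, 11.02% of WT3, 9.64% of MT1306 and 1.02% of MT1383, and 0.105% and 0.055% of those of WT2 and MT1301. The share of a mouse's basal cells that were Basal4 thus ranged widely within each genotype.

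**Figure D4:**
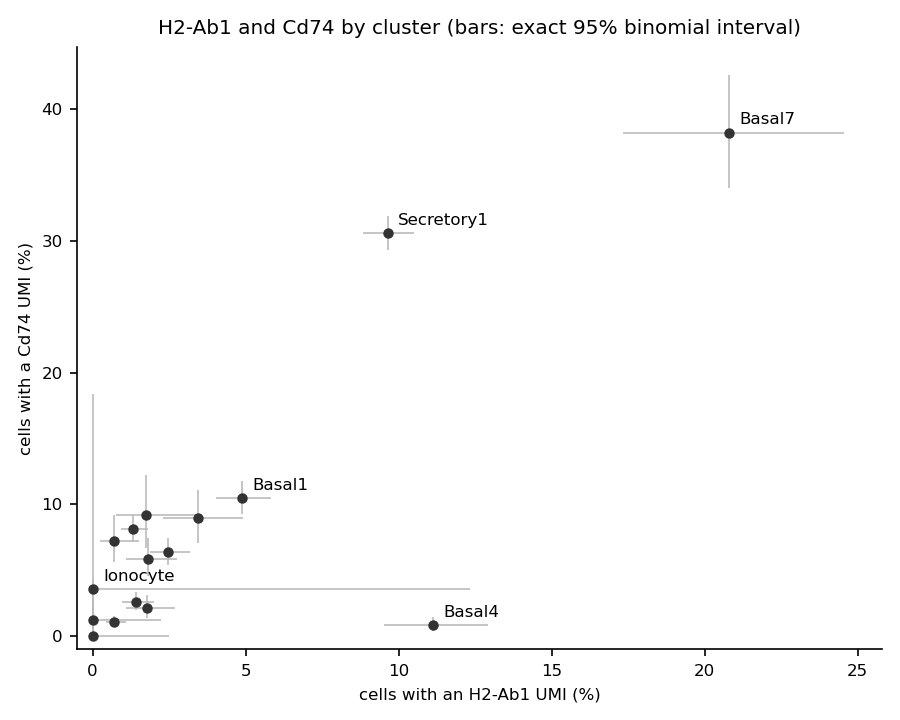
Percent of cells with a Cd74 UMI (y axis) against percent with an H2-Ab1 UMI (x axis); each point is 1 of the 16 clusters, and bars are exact 95% binomial intervals. Basal4 lies at 11.1% for H2-Ab1 and 0.806% for Cd74, and Basal7 and Secretory1 have the highest Cd74 shares.

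For the other chains the pairing with Cd74 in the leading clusters was similar. Of the cells with H2-Aa, 92.0% in Basal7 (81 of 88) and 78.9% in Secretory1 (332 of 421) also had Cd74, against 27.0% and 26.0% of the cells without H2-Aa. Of those with H2-Eb1, 87.7% (57 of 65) and 82.8% (193 of 233) had Cd74, against 31.0% and 28.0% of those without. For H2-DMb1 the values were 60.3% (73 of 121) and 50.4% (483 of 958), against 31.4% and 25.7% without it. For H2-DMa they were 69.7% (46 of 66) and 46.0% (238 of 517), against 33.6% and 28.8%. Ciita cells had Cd74 in 9 of 11 cases in Basal7 and 33 of 64 in Secretory1, against 37.3% and 30.3% of the cells without Ciita. Cells with H2-Ab1 were deeper than those without in Secretory1, at medians of 39014 and 32858.5 UMIs, and the part of depth in these shares was not tested.

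Whether the allele of Dnaaf5 went with a change in class II was compared in counts summed per mouse over all cells of a type, with limma voom over all genes and Benjamini-Hochberg adjusted p-values called under 0.05. No member passed in basal, secretory or multiciliated cells or in Basal7. In basal cells 0% of 14615 genes passed (334 had an unadjusted p under 0.05), in secretory cells 0.00735% of 13610 (258), in multiciliated cells 0.00704% of 14206 (614) and in Basal7 0% of 9947 (108). The gene called in secretory and multiciliated cells was Wdfy1, an endosomal adaptor and no class II gene. The lowest adjusted p of a member was 0.896. The p-values set the difference between genotypes against the spread between mice. There were 3 mice of each genotype, except in Basal7, with 3 *WT/WT* and 2 *MIS/MIS* mice. The median log2 fold change over all genes was within 0.01 of 0 in each comparison.

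In basal cells all 7 members had negative fold changes and none passed. H2-Aa was at 5.30, 1.84 and 1.74 CPM in WT1, WT2 and WT3 and at 1.60, 1.47 and 0.510 CPM in MT1301, MT1306 and MT1383. The groups did not overlap, but WT2 and WT3 lay close above MT1301. Its log2 fold change (*MIS/MIS* over *WT/WT*) was -1.38 (SE 0.65; 95% interval -2.95 to 0.19; adjusted p = 1.00). H2-Ab1 was at 8.59, 2.13 and 5.65 CPM against 2.51, 2.58 and 1.04 CPM, and its log2 fold change was -1.44 (SE 0.66; -3.02 to 0.13). H2-Eb1 was at 4.71, 1.32 and 2.59 CPM against 1.49, 1.40 and 0.697 CPM, with a log2 fold change of -1.26 (SE 0.58; -2.65 to 0.13). WT1 was the highest mouse and MT1383 the lowest for each chain, and for H2-Ab1 and H2-Eb1 WT2 fell within the *MIS/MIS* range. Cd74 was at 16.97, 12.7 and 16.3 CPM against 16.1, 19.6 and 4.68 CPM, with a log2 fold change of -0.52 (SE 0.51). Its groups overlapped, and MT1306 was the highest mouse.

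Ciita was at 0.232, 0.209 and 0.271 CPM in the *WT/WT* mice and 0.128, 0.138 and 0.204 CPM in the *MIS/MIS* mice, on 65 UMIs in all. The groups did not overlap, and the log2 fold change was -0.65 (SE 0.35). Of the 7 members 2, H2-Aa and Ciita, did not overlap between genotypes in basal cells, where 7.96% of all genes tested did not. H2-DMa and H2-DMb1 had log2 fold changes of -0.17 (SE 0.22; 95% interval -0.70 to 0.37) and -0.084 (SE 0.44; -1.14 to 0.97), so that H2-DMb1 may differ in either direction.

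The basal sums moved with the cells that made them up. Basal7 cells were 3.27%, 8.01% and 3.43% of the basal cells of WT1, WT2 and WT3 and 10.8%, 3.02% and 0.423% of those of MT1301, MT1306 and MT1383. Without the 3 WT1 cells described above, H2-Aa in the basal cells of WT1 was 0.573 CPM in place of 5.30 CPM, H2-Ab1 3.36 in place of 8.59 CPM, Cd74 4.86 in place of 16.97 CPM and Ciita 0.0619 in place of 0.232 CPM. WT1 then lay within the *MIS/MIS* range for H2-Aa and below it for Ciita, so neither gene kept its separation. Outside Basal7, H2-Ab1 was at 3.11, 0.724 and 5.68 CPM in the *WT/WT* mice and 0.874, 1.53 and 0.991 CPM in the *MIS/MIS* mice. There too WT2 was the lowest mouse and the groups overlapped. Without the 3 cells the basal log2 fold changes were -0.24 for H2-Aa, -0.95 for H2-Ab1, -0.40 for H2-Eb1, -0.021 for Ciita and -0.042 for H2-DMa, and those of Cd74 and H2-DMb1 turned to 0.13 and 0.035. Without all Basal7 cells they were -0.14 for H2-Aa, -1.22 for H2-Ab1 and -0.52 for H2-Eb1.

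In secretory cells 0 of 7 members separated the genotypes, where 5.5% of all genes did. Cd74 was at 42.2, 11.6 and 70.8 CPM in WT1, WT2 and WT3 and at 37.8, 52.8 and 42.0 CPM in MT1301, MT1306 and MT1383, with a log2 fold change of 0.50 (SE 0.59; 95% interval -0.88 to 1.88). H2-Aa was at 3.46, 0.997 and 10.7 CPM against 2.70, 5.01 and 4.45 CPM, with a log2 fold change of 0.57 (SE 0.78; -1.26 to 2.39). The *WT/WT* mice held both the lowest and the highest value of each. Secretory1 cells, with Cd74 at 65.1 CPM against 6.59 CPM in Secretory2, were 55.4%, 54.9% and 67.2% of the secretory cells of WT1, WT2 and WT3 and 57.4%, 47.2% and 88.8% of those of MT1301, MT1306 and MT1383, and the part of these shares in the sums was not tested. The mean of H2-Aa was 5.06 ± 5.05 CPM in *WT/WT* and 4.05 ± 1.21 CPM in *MIS/MIS*, so the difference of the means and the fold change on the log scale had opposite signs. The log2 fold changes were 0.41 (SE 0.69) for H2-Ab1, 0.52 (SE 0.79) for H2-Eb1, -0.17 (SE 0.20) for H2-DMa, -0.061 (SE 0.26) for H2-DMb1 and -0.20 (SE 0.44) for Ciita. The intervals of H2-Ab1 and H2-Eb1 ran from -1.21 to 2.03 and from -1.33 to 2.37, so they held differences of either sign. Without WT2 the log2 fold changes were -0.32 for Cd74, -0.73 for H2-Aa, -0.77 for H2-Ab1 and -0.80 for H2-Eb1, so that mouse set their sign.

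**Figure D5:**
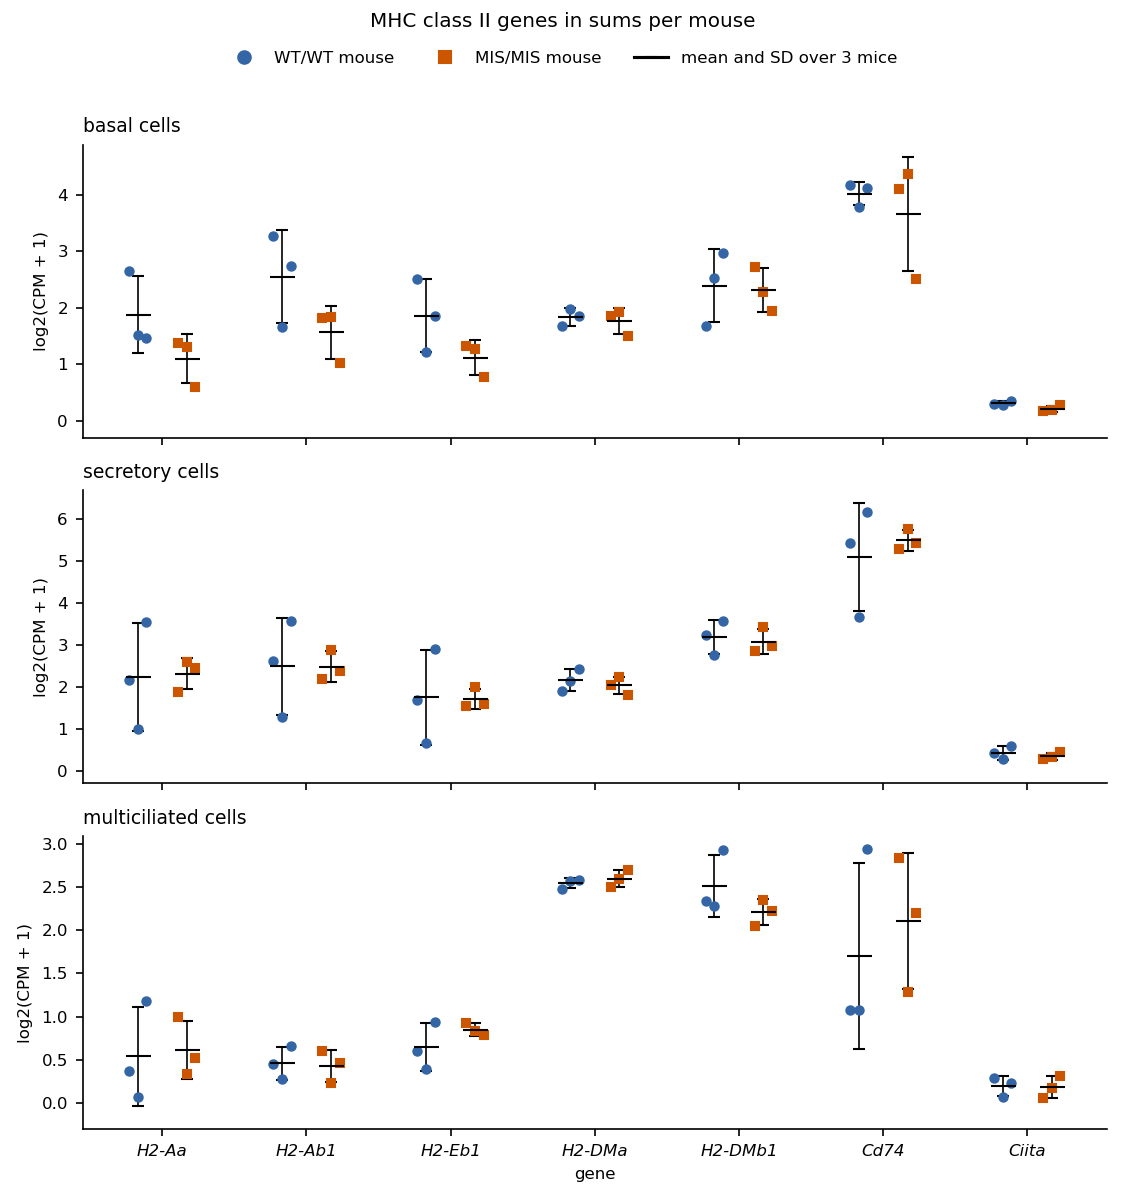
Level of each gene (log2 of CPM + 1, y axis) in basal, secretory and multiciliated cells summed per mouse; blue circles are *WT/WT* mice, orange squares are *MIS/MIS* mice, and bars are the mean and SD over 3 mice. In secretory cells the *WT/WT* values of Cd74 run from 11.6 to 70.8 CPM and enclose the *MIS/MIS* values.

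In multiciliated cells, the cells whose cilia depend on Dnaaf5, H2-Eb1, H2-DMa, H2-DMb1 and Cd74 had enough counts to be tested, and 0 of these 4 separated the genotypes (10% of all genes did). H2-DMa was at 4.58, 4.95 and 5.00 CPM in the *WT/WT* mice and at 4.65, 5.02 and 5.49 CPM in the *MIS/MIS* mice. Its log2 fold change was 0.051 (SE 0.14; 95% interval -0.28 to 0.39), and -0.42 with every cell thinned to 5000 UMIs. H2-DMb1 was at 4.07, 3.85 and 6.61 CPM against 3.14, 4.11 and 3.65 CPM, with a log2 fold change of -0.41 (SE 0.23; -0.94 to 0.11). The fold changes of Cd74 and H2-Eb1 were 0.61 (SE 0.73) and 0.49 (SE 0.40). H2-Aa, H2-Ab1 and Ciita gave 79, 55 and 24 UMIs in all multiciliated cells, too few for a test.

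In Basal7, 3 *WT/WT* mice were set against 2 *MIS/MIS* mice, and 6 members were tested. None separated the groups, where 11.1% of all genes did. The log2 fold changes were -0.64 (SE 1.28) for H2-Aa, -0.35 (SE 1.22) for H2-Ab1, -0.91 (SE 1.16) for H2-Eb1, -0.22 (SE 0.51) for H2-DMa, -0.29 (SE 0.30) for H2-DMb1 and 0.77 (SE 1.16) for Cd74. Without the 3 WT1 cells the values of the chains were 0.32, 0.71 and 0.22 for H2-Aa, H2-Ab1 and H2-Eb1, and those of H2-DMa and H2-DMb1 were 0.43 and 0.096. All 5 thus changed sign when the 3 cells were left out. H2-DMb1 nevertheless stayed negative, from -0.51 to -0.073, when each mouse, WT1 included, was left out in turn. The value of Cd74 was -0.29 without WT3 and -0.10 without MT1306.

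The share of cells with a UMI was compared between genotypes with a two-sided exact permutation test over mice for the 7 genes in 3 cell types, 21 tests in all. With 3 mice against 3 the smallest p is 0.1. The lowest p by this exact test was 0.2, all adjusted p-values were 1, and 0 of 21 shares separated the genotypes. H2-Ab1 in basal cells was found in 7.80%, 2.90% and 9.64% of the cells of WT1, WT2 and WT3 and in 4.07%, 4.66% and 1.45% of those of MT1301, MT1306 and MT1383. WT2 lay within the *MIS/MIS* range. After thinning to 5000 UMIs, 1 of 21 separated, H2-DMa in multiciliated cells, at 2.71%, 2.75% and 3.56% against 2.14%, 2.15% and 2.32% (exact permutation p = 0.1, the smallest possible; adjusted p = 1).

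Other genes of antigen presentation and of its control were read from the same fits. Over 9 lists and the 4 comparisons, 253 tests of list genes gave 0 calls, with a lowest adjusted p of 0.896 by limma voom. Among 12 further class II loci and genes of peptide loading in the table, Ctsl (cathepsin L), Ctsd and Ctsb, which cut proteins in lysosomes, and Ctsh averaged 1879 ± 419, 481 ± 48.7, 361 ± 35.7 and 271 ± 32.3 CPM over the 6 mice. Of the 12, 4 were highest in Basal7, and 2 without the 3 WT1 cells: Ctsd and Lgmn were at 759 and 79.8 CPM there, while H2-DMb2 and H2-Eb2 were at 0.940 and 0.846 CPM. Ctss, the cathepsin that trims the invariant chain in professional antigen-presenting cells, was at 2.53 CPM in Secretory1 and 1.43 CPM in Basal7. The medians of the fold changes of this list were 0.021, 0.0017, -0.061 and 0.15 in basal, secretory, multiciliated and Basal7 cells.

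Transcripts of the 7 factors that bind the X and Y boxes were found in all 16 clusters. Nfyb averaged 39.3 ± 2.34 CPM, Rfxap 27.0 ± 1.61 CPM, Creb1 24.9 ± 0.669 CPM and Nfyc 14.3 ± 1.66 CPM over the 6 mice, and Rfx5 9.12 ± 0.247 CPM. None of the 7 was highest in Basal7 or Secretory1; Rfx5 was at 9.07 CPM in Basal7 and 7.56 CPM in Secretory1. Of the 10 genes of interferon-γ signalling, Jak1, Ifngr2, Irf2 and Ifngr1 led with 67.9 ± 6.52, 61.3 ± 5.36, 56.7 ± 5.69 and 49.4 ± 5.35 CPM, and 0 of 10 were highest in Basal7. Ifng, the cytokine itself, was at 0 in 5 of the 6 mice and at 0.0357 CPM in the other. The medians of the fold changes in basal, secretory, multiciliated and Basal7 cells were -0.033, 0.011, 0.00069 and -0.17 for the regulators and -0.011, 0.035, 0.030 and -0.019 for the signalling genes.

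Targets of interferon-γ other than class II had their highest levels in several clusters. Irgm1, an interferon-inducible GTPase, averaged 36.9 ± 9.63 CPM and was highest in Basal1, Ifi47 averaged 11.4 ± 4.05 CPM and was highest in Multiciliated3, and Gbp2 and Igtp averaged 8.50 ± 1.76 and 5.59 ± 1.42 CPM. Of the 17 that were measured, 3 were highest in Basal7: Tgtp1 at 5.69 CPM, Nlrc5, the coactivator of class I genes, at 2.43 CPM and Gbp9 at 1.55 CPM. The median Pearson correlation of the 17 over the 16 clusters with the summed chains and Cd74 was 0.389, and that of all 13111 genes -0.00600. The median of the members, 0.856, cannot be set against it, since 4 of them are part of that sum. Members outside the sum had 0.478 (H2-DMa), 0.723 (H2-DMb1) and 0.856 (Ciita), and the highest target, Gbp9, had 0.635. Without the 3 WT1 cells the r of H2-DMa, H2-DMb1 and Ciita were 0.306, 0.667 and 0.803, and without Basal7 0.0240, 0.473 and 0.627. For Gbp9 only the r over all cells is given. The medians of the targets' fold changes were 0.12, 0.20, 0.16 and 0.42 in basal, secretory, multiciliated and Basal7 cells. In Basal7 9 of 9 targets tested had a positive value and none passed. Of these, 2 did not overlap between the genotypes, Irgm2 (log2 fold change 0.93, SE 0.36) and Tgtp1 (0.39, SE 0.30), where 11.1% of all genes tested in Basal7 did not.

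MHC class I, which displays cytosolic peptides to CD8+ T cells, was highest in Basal7 for 8 of 17 genes, and for 6 without the 3 WT1 cells. Multiciliated4, the shallowest cluster, had the lowest H2-K1, at 80.0 CPM, and no UMI of H2-Q6 or H2-Q7. H2-K1 and H2-D1 averaged 498 ± 67.8 and 416 ± 68.1 CPM over mice and reached 1175 and 887 CPM in Basal7, B2m, their light chain, averaged 390 ± 77.3 CPM, and Tapbp 138 ± 10.4 CPM. H2-K1 in Basal7 was 1164 CPM without the 3 cells, so unlike H2-Aa it did not rest on them. The median log2 fold changes were 0.078 in basal cells (13 of 17 positive), 0.099 in secretory cells (16 of 17), 0.0058 in multiciliated cells (9 of 16) and 0.099 in Basal7 (12 of 15), and 0 genes passed. The response to class II also depends on co-stimulatory and inhibitory checkpoint molecules, of which 7 were listed. Cd80, which co-stimulates T cells, averaged 4.03 ± 1.71 CPM, Cd83 1.03 ± 0.664 CPM and Cd40 0.469 ± 0.294 CPM, and Cd274, which encodes the inhibitory ligand PD-L1, averaged 1.11 ± 0.272 CPM. None of the 7 was highest in Basal7 or Secretory1. Cd80 was at 10.96 CPM in Basal1, 1.24 CPM in Secretory1 and 0.482 CPM in Basal7.

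The genes most like the chains and Cd74 over the clusters were Nog (Pearson r = 0.884), Gem (0.881), Cxcl1 (0.873), Lox (0.862), Flt4 (0.861), Tnfrsf1b (0.854), Cryab (0.853), Tnf (0.835), Cxcl5 (0.832) and Man1c1 (0.820). The r is that of log2(CPM + 1) with the log2 of the summed CPM + 1 over the 16 clusters, which share libraries, and 13111 genes were considered. Without the 3 WT1 cells 8 of the 10 were again among the first 10. Cxcl5, a neutrophil chemokine, was at 82.9 CPM in Secretory1 and 33.1 CPM in Basal7, and Lox, the collagen cross-linking enzyme, at 28.0 and 61.2 CPM. Left without Basal7, the r was 0.879 for Cxcl5 and 0.853 for Gem but 0.559 for Tnf. Among the members the r was 0.970 for Cd74 and 0.949 without Basal7. Cd74 is itself part of the sum, with 15333 of its 21126 UMIs, so these values are no separate comparison. For H2-DMa the r was 0.478, and 0.0240 without Basal7. Among the members outside the sum its profile thus followed the sum, which is mostly Cd74, least.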

How the data were processed

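Cells of 3 *WT/WT* and 3 *MIS/MIS* mice, differentiated at an air-liquid interface, were profiled with a 10x 3′ single-cell kit. The submitters' processing notes name Cell Ranger 7.1.0 and mm10; the study's methods name an earlier version. Cells were filtered and grouped in Seurat by the authors, who deposited whole UMI counts of each gene in each cell and a cluster name for each cell. Every value was whole, and each cell's total equalled the authors' total. No column lacked a mapped sample (0), and 655 cells lay outside the stated filters of 2500 to 7500 genes and 25% mitochondrial counts. No title holds the animal number of a mutant library, and the mutant libraries served as replicates without a number. No doublet caller was run here.

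Counts were summed per mouse and cell type. A negative binomial count test had been planned, with limma as the fallback for values that were not counts. The values were whole counts, but the table's mistyped separator had them recorded as another kind of value. The fallback was used, which departed from the plan: limma 3.58.1 voom in R 4.3.3, with TMM factors (trims 0.3 and 0.05). Genes needed a count of 10 in a library of median size, in as many mice as the smaller genotype held, and a total of 15; the sums held 1534584 to 73216051 UMIs. Fold changes are log2 with SEs and 95% intervals of the fit; p-values were Benjamini-Hochberg adjusted over all genes tested, with a threshold of 0.05. The procedure was tested on simulated data. Shares have exact (Clopper-Pearson) 95% intervals, and a share of 0 the limit of 3 counts. Thinning and descriptions used Python 3.11.15, numpy 2.4.6, scipy 1.17.1 and pandas 2.3.3. Alternatives were RLE size factors, no low-count filter, thinning to 5000 UMIs, the stated cell filters, basal cells without Basal7, each mouse left out, and, chosen after seeing the data, limma-trend and the exclusion of 3 cells with at least 300 summed UMIs.

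Named were the 7 members, the up to 4 genes of highest mean CPM in each list and those past the threshold, and the 10 genes most like the summed chains and Cd74; further genes were named after their values had been seen. The lists were other class II and peptide loading genes, promoter-bound regulators, interferon-γ signalling, its targets, MHC class I, co-stimulatory ligands, and leukocyte, fibroblast and endothelial, and epithelial markers. The members and lists were chosen with earlier results of these data known. Clusters were named by the authors from the same genes, so no test was made between them.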

Additional observations from a re-analysis of the deposited data

How the results depend on the processing

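No paired analysis was possible because the labels number the animals within a genotype and name no pairs. The names of the *MIS/MIS* libraries also match no numbered title. The count-model alternative was not run. The values were whole UMI counts, but the mistyped separator had the table recorded as another kind of value. Of 269 recomputed log2 fold changes of the members, 236 kept their direction and side of the threshold, 33 turned in direction and 0 passed, with a lowest adjusted p of 0.506 (limma). Of 168 recomputed differences in the share of cells, 132 kept their direction and 36 turned, and the lowest adjusted exact permutation p was 0.7. Calls in secretory cells fell from 1 to 0 (lowest 0, highest 0) when any mouse was left out. Calls in basal cells, multiciliated cells and Basal7 did not move under any alternative run.

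Without Basal7 cells the basal log2 fold changes of H2-DMb1 and Cd74 were 0.060 and 0.11. Without the 3 WT1 cells they were 0.035 and 0.13, and those in Basal7 were 0.32 for H2-Aa, 0.71 for H2-Ab1, 0.22 for H2-Eb1, 0.43 for H2-DMa and 0.096 for H2-DMb1. Thinned to 5000 UMIs, H2-DMa in multiciliated cells was -0.42. The cause was not tested. When each mouse was left out in turn, the log2 fold changes that turned ran in basal cells from -0.26 to 0.031 for H2-DMa, from -0.54 to 0.25 for H2-DMb1 and from -0.84 to 0.16 for Cd74. They ran in secretory cells from -0.73 to 1.28 for H2-Aa, from -0.77 to 1.00 for H2-Ab1, from -0.80 to 1.25 for H2-Eb1, from -0.40 to 0.15 for H2-DMb1, from -0.32 to 1.12 for Cd74 and from -0.66 to 0.092 for Ciita. They ran in multiciliated cells from -0.027 to 0.097 for H2-DMa, and in Basal7 from -1.71 to 0.40 for H2-Aa, from -1.36 to 0.69 for H2-Ab1, from -1.57 to 0.16 for H2-Eb1, from -0.53 to 0.23 for H2-DMa and from -0.29 to 1.80 for Cd74. The limits are the 3 mice of a genotype, the low counts of Ciita, and, in Basal7, 37 to 197 cells per mouse.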
